A study of Mus musculus with 15 samples.

Results

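The genes described here are the splicing factors of cultured mouse lymphatic endothelial cells (LECs), the cells that line lymphatic vessels. They were chosen by gene symbol, as every probe set with 1 symbol that begins with Srsf, Luc7l, Hnrnp, Sf3a, Sf3b, U2af, Prpf or Snrp, together with Clk1 to Clk4. This gave 70 genes with 1 probe set each, of 19505 symbols on 22206 probe sets. They fell into 7 classes, with 10 SR proteins, 3 Luc7-like proteins, 4 Clk kinases, 19 heterogeneous nuclear ribonucleoproteins (hnRNPs), 11 SF3 and U2AF factors, 12 Prpf factors and 11 snRNP proteins. The group was picked because the level of Luc7l3 at 24 h stood out against control. The values of Luc7l3 that involve 24 h are thus given as a description with no test. The counts at 24 h cover the other 69 genes. The 12 h comparison of Luc7l3 shares its control arrays with that choice, so its 12 h p-value is not independent of it.

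The samples were 5 labelled Ang II for 12 h, 5 labelled Ang II for 24 h and 5 labelled Sham, the saline control, each with 1 Affymetrix array. Angiotensin II (Ang II) is the effector peptide of the renin-angiotensin system, and the labels give its dose as 500 nM. The study's methods print another, far lower concentration beside that dose, so the concentration is not settled. The labels call the cells of all groups a murine LEC line while the study's text speaks of purchased primary cells, and they were grown in serum-supplemented medium with no genetic change named. The control has no stated harvest time, so Ang II and time in culture cannot be told apart. The sources do not say that the numbered replicates are separate cultures, and the p-values cover no more than the variation among these samples, possibly a technical one.

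Splicing removes introns from the nascent transcript in steps that the classes share between them. The U1 particle marks the 5′ splice site, and Luc7-like proteins bind it and shape which 5′ sites are used. U2AF recognises the 3′ end of the intron and brings in the U2 particle, whose SF3 subunits hold the branch point, before most Prpf proteins enter with the U4/U6.U5 particle. SR proteins mostly favour the use of nearby exons and are phosphorylated by Clk kinases, while many hnRNPs bind the same transcripts and often lead to exon skipping. Transcripts of many of these factors are themselves spliced in alternative forms, and the array value of a gene sums over the forms that its probes bind.

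Levels are deposited log2 expression values, on which a difference of 1 is a doubling, and were compared only between arrays for the same probe set. As a mark of low signal, the 95th percentile of 487 probe sets of tissue-restricted families (such as vomeronasal and taste receptors) was 6.26. Of the splicing factor genes 37 lay above this mark on average and 33 at or below it, against 14.5% of all probe sets above it. Signal depends on the probes of each gene, so the mark is no limit of expression. By class, 4 of 10 SR proteins, 3 of 3 Luc7-like proteins, 1 of 4 Clk kinases, 15 of 19 hnRNPs, 7 of 11 SF3 and U2AF factors, 4 of 12 Prpf factors and 3 of 11 snRNP proteins lay above it. Markers of the labelled cell type were mostly under the mark, with 1 of 10 lymphatic endothelial markers (Ccl21a) and 0 of 12 general endothelial markers above it, beside 0 of 9 fibroblast and mural, 1 of 5 leukocyte (Ptprc) and 2 of 6 epithelial markers (Krt8 and Krt18). The mean level of the lymphatic list ranged over 4.48 to 4.64 at 12 h, 4.46 to 4.58 at 24 h and 4.36 to 4.68 in control, and no marker of any list passed an adjusted p of 0.05. A pair of arrays stood apart, replicate 3 at 24 h and replicate 3 of control, with mean correlations of 0.962 and 0.957 with the rest, where the other arrays had 0.966 to 0.969.

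Over the 3 groups, 0 of the 69 other splicing factor genes passed an adjusted p of 0.05 in limma's moderated F test, against 0.0225% of all probe sets. At an unadjusted p under 0.05 the F test took 5 of them, or 7.25%, against 6.25% of all probe sets. These were Clk4, Snrpa1, Prpf3, Prpf39 and Sf3b1. The count was 3 without both arrays that stood apart, without control replicate 3 alone, and without Ang II 24 h replicate 1. The share is near the background and is no result about splicing factors as a group. The largest difference at either time, by size, was that of Luc7l3, followed at 24 h by Clk4 and Snrpa1. These are set out first, each with the sequence around a start given for the gene.

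The windows below run from 250 bases before to 50 bases after a start given for the gene in RefSeq (build GRCm38.p6). They are printed 5′ to 3′ on the strand of the gene. For Clk4 and Snrpa1 this start is the outer end of the gene's RefSeq span. The Luc7l3 window lies wholly inside the span, whose outer end on the minus strand is at 94322329. The windows are shown because these genes had the largest differences at 24 h. Capitals mark matches on either strand to the GC box GGGCGG, the cAMP response element (CRE) TGACGTCA or the YY1 core GCCATNTT.
Luc7l3, chr11:94321914-94322213, minus strand: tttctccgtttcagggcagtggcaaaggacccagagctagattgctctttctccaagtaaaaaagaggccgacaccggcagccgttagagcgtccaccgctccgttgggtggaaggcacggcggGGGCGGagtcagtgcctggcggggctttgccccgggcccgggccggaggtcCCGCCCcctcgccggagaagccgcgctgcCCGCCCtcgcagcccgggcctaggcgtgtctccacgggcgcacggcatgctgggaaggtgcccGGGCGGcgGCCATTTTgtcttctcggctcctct
Clk4, chr11:51262864-51263163, plus strand: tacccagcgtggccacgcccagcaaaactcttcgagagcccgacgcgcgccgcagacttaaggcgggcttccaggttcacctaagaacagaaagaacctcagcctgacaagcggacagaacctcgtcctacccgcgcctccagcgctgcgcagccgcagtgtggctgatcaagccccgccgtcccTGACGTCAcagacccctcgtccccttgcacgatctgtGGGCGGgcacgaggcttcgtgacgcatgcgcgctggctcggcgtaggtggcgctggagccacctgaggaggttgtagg
Snrpa1, chr7:66060086-66060385, plus strand: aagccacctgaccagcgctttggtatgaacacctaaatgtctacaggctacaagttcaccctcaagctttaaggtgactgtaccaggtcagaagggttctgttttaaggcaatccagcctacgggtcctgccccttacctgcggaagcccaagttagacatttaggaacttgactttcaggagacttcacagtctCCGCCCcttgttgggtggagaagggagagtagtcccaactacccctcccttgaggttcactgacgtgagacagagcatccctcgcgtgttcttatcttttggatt

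The Luc7l3 window held 4 GC boxes and, just after the last of them, a YY1 core. The Clk4 window held 1 CRE followed by 1 GC box, and the Snrpa1 window held a single GC box. A window was found for 60 of the 70 genes, 78 windows in all, and 12 genes had over 1 window. GC boxes stood in 66.7% of these windows and in 35.7% of all 32851 windows. The CRE stood in 3.85% against 1.79%, the E-box CACGTG in 14.1% against 7.15%, the CCAAT box in 48.7% against 37.4%, the TATA box TATAAA in 8.97% against 13.6%, and the YY1 core in 8.97% against 6.05%. The windows of all genes were not matched to the members by level of expression, so the shares are no trait of splicing factors. The motifs were picked after some windows had been seen, a match is not a bound site, and the arrays measure no binding.

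Luc7l3 (probe set TC1100003559.mm.2, chromosome 11) encodes an RS-domain relative of the yeast U1 protein Luc7. Its levels were 7.93, 8.18, 8.09, 8.18 and 8.11 at 12 h, 7.32, 8.08, 7.50, 7.48 and 7.74 at 24 h, and 8.37, 8.49, 8.19, 8.12 and 8.67 in control. At 24 h the highest array, at 8.08, lay narrowly under the lowest control array, at 8.12. At 12 h the arrays reached into the control range, and only replicate 2 at 24 h reached into the 12 h range. The means were 8.10 ± 0.10 at 12 h and 7.62 ± 0.30 at 24 h, against 8.37 ± 0.22 in control (SD, n = 5 each). The log2 fold change at 24 h was -0.74 against control, a level of 0.597 times that of control, and -0.47 against 12 h. At 12 h it was -0.27 ± 0.15 (SE) against control, with an unadjusted p of 0.0949 and an adjusted p of 0.966 by limma. The control arrays are those on which Luc7l3 was picked, so these p-values are not independent of the choice. Over all alternative settings the 24 h value lay between -0.86, without Ang II 24 h replicate 2, and -0.67, and it was -0.76 without both arrays that stood apart. In a bulk array fewer cells with the transcript and less transcript per cell cannot be told apart.

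Luc7l2, the closest relative of Luc7l among the 3 and a protein bound to U1, had levels of 9.83, 9.59, 9.54, 9.77 and 9.97 at 12 h, 9.18, 9.99, 9.37, 9.48 and 9.55 at 24 h, and 9.99, 9.87, 9.48, 9.62 and 9.78 in control. Replicate 1 at 24 h was the lowest of the 15 arrays, but replicate 2 at 24 h was among the highest and the groups overlapped. The log2 fold change at 24 h was -0.23 ± 0.16 (SE, adjusted p = 0.797 by limma), and at 12 h it was -0.01 ± 0.16. Luc7l averaged 6.92 ± 0.20 at 12 h and 7.03 ± 0.34 at 24 h, against 6.92 ± 0.11 in control. The 24 h mean of Luc7l rested on replicate 3, one of the arrays that stood apart, at 7.62, with the others at 6.77 to 7.01. The log2 fold change of Luc7l at 24 h was 0.12 with this array and -0.03 without it.

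**Figure D1:**
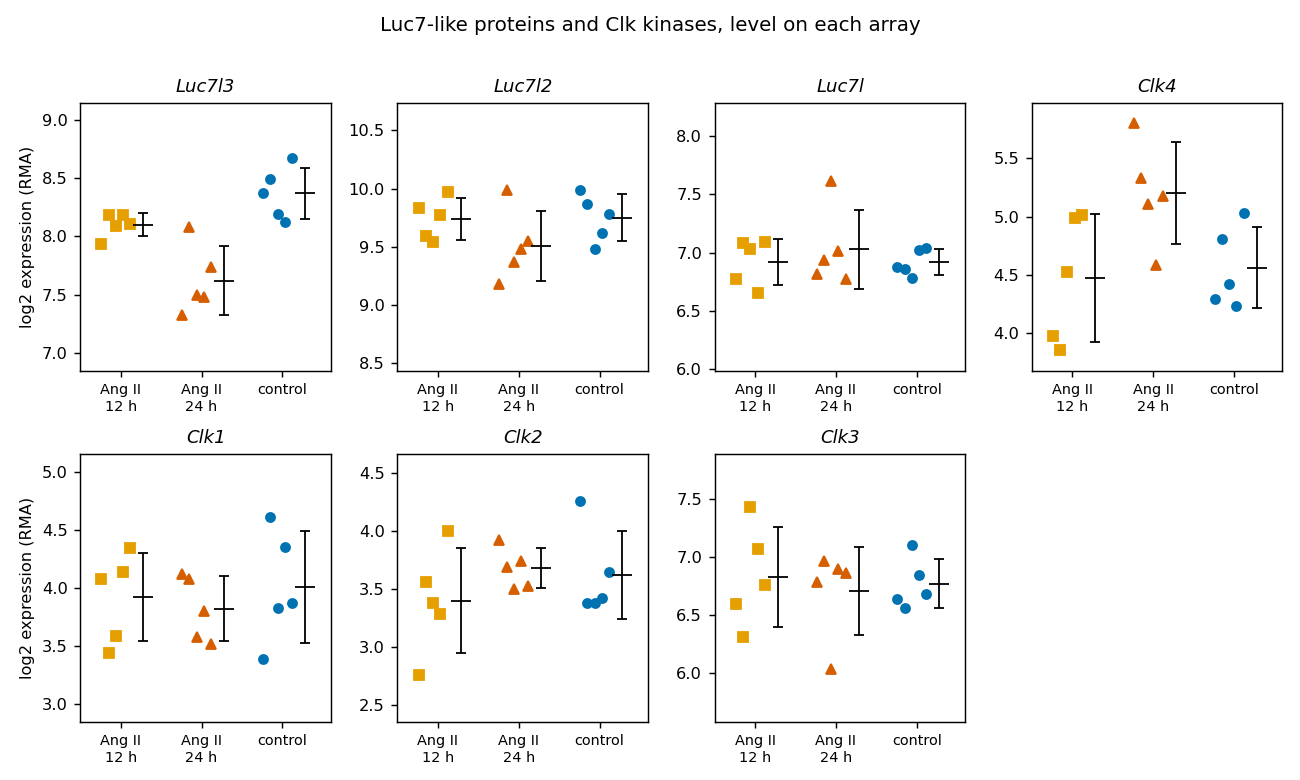
Log2 expression of the Luc7-like proteins and the Clk kinases on each array (vertical axes, all spanning the same log2 range), for Ang II 12 h, Ang II 24 h and control, with the group mean and SD in black (n = 5). Luc7l3 at 24 h lies at 7.32 to 8.08, under every control array, and 4 of the 5 Clk4 arrays at 24 h lie above every control array.

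Across the 15 arrays Luc7l2 had the highest Pearson r with Luc7l3, 0.70, and r was 0.69 on deviations from the group means. The order by rank was another one, since the Spearman rho of Luc7l2, 0.53, was below those of Sf3a3 (0.64), Snrpa1 (0.56), U2af2 (0.56) and Sf3b1 (0.55). Array by array, the lowest and the highest Luc7l2 levels at 24 h fell on the arrays with the lowest and the highest Luc7l3 levels of that group. Next by Pearson r came Snrpa1 (0.54), Sf3a3 (0.54), Hnrnpc (0.47) and Hnrnpll (0.42), whose values within groups were -0.02, 0.08, 0.13 and 0.19. Within groups Snrpf (0.68) and Hnrnph1 (0.54) came next after Luc7l2, although over all arrays their r was 0.05 and -0.08, and both are named here after their values were seen. The lowest correlations were those of Snrpe (-0.42), Prpf8 (-0.38) and Clk4 (-0.35), with -0.54, -0.31 and 0.28 within groups. The values of all other probe sets ran from -0.46 at the 5th to 0.44 at the 95th percentile. Those of the 69 splicing factors ran from -0.32 to 0.45 between the same percentiles. Luc7l2 was above both, and as the highest of the 69 it had to be above their 95th percentile. Snrpa1, Sf3a3 and Hnrnpc were above both as well. The Luc7l3 levels on which the genes were picked enter every one of these values. All points share their arrays, and the correlations are a description over 15 arrays with no test.

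**Figure D2:**
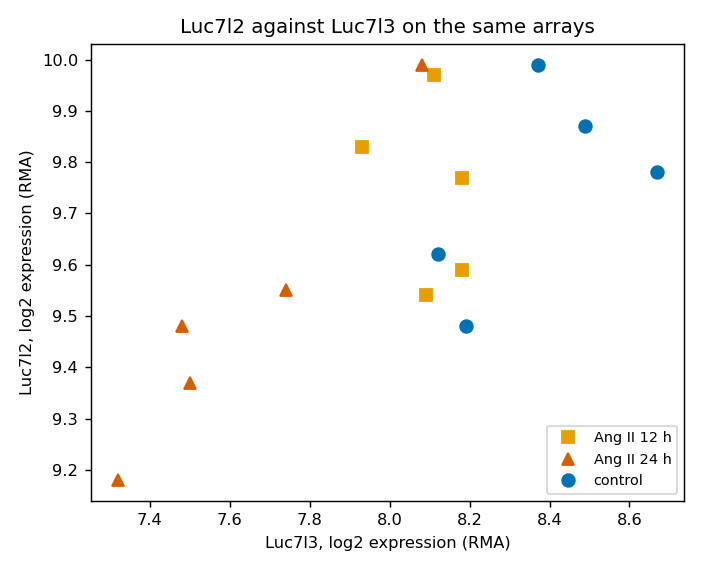
Log2 expression of Luc7l2 (vertical axis) against Luc7l3 (horizontal axis) on the 15 arrays, 1 point per array, for Ang II 12 h, Ang II 24 h and control. The 24 h arrays run from 7.32 and 9.18 to 8.08 and 9.99, and r was 0.70 over all arrays.

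The Clk kinases phosphorylate the RS domains of SR proteins. Clk4 (probe set TC1100000565.mm.2, chromosome 11) had levels of 3.97, 3.85, 4.52, 4.99 and 5.01 at 12 h, 5.80, 5.33, 5.11, 4.58 and 5.18 at 24 h, and 4.29, 4.81, 4.42, 4.23 and 5.03 in control. Only replicate 4 at 24 h lay within the control range. The log2 fold change at 24 h was 0.64 ± 0.25 (SE) against control, with an unadjusted p of 0.0168 and an adjusted p of 0.598 by limma, and 0.73 ± 0.25 against 12 h, with 0.00763 and 0.787. Without Ang II 24 h replicate 1 the difference from control was 0.49, with an unadjusted p of 0.0611. The mean level of Clk4 was under the low-signal mark in each group. At 12 h its mean differed from control by -0.09, less than the SD of 0.55 between the 12 h arrays.

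For the other kinases the log2 fold changes at 12 h and 24 h were -0.09 and -0.19 for Clk1, -0.22 and 0.06 for Clk2, and 0.07 and -0.05 for Clk3. Their groups overlapped, and they had adjusted p-values of at least 0.91 at 24 h. Clk3, the only kinase above the low-signal mark, averaged 6.83 ± 0.43 at 12 h, 6.71 ± 0.38 at 24 h and 6.77 ± 0.21 in control. Its lowest level, 6.04, was again that of Ang II 24 h replicate 3, without which the log2 fold change at 24 h was 0.11.

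At 12 h, 0 of the 70 genes were higher than control at an unadjusted p under 0.05, against 2.51% of all probe sets, and 4 were lower, against 2.40%. The 4 were Prpf39, Prpf3, Sf3b2 and Sf3b1. Counted in either direction this was 5.71% of the splicing factors and 4.91% of all probe sets. None of the 70 genes, and 0% of all probe sets, passed an adjusted p of 0.05 by limma, and by Duncan's multiple range test (the test of the study's methods) 3 passed before and 0 after adjustment. At the unadjusted level 2 passed without both arrays that stood apart or without control replicate 3 alone, and 8 passed without control replicate 2. The arrays of the groups did not overlap for 2 genes, against 0.689% of all probe sets: Prpf3, lower at 12 h, and Hnrnpab, higher at 12 h by 0.18, which is named after its values were seen.

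At 24 h, 1 of the 69 genes was higher than control at an unadjusted p under 0.05, against 3.64% of all probe sets, and 4 were lower, against 3.46%. Clk4 was the higher one, and Snrpa1, Sf3b1, Prpf3 and U2af2 were the lower ones. In either direction these were 7.25% of the splicing factors and 7.10% of all probe sets. By limma 0 of the 69 passed an adjusted p of 0.05, against 0.0180% of all probe sets, and by Duncan's test 6 passed before and 0 after adjustment. Without both arrays that stood apart the unadjusted count was 3, and Clk4 (unadjusted p = 0.0424 by limma) and Snrpa1 (unadjusted p = 0.0132) were among them, while Sf3b1, Prpf3 and U2af2 were not. Without Ang II 24 h replicate 3 alone it was also 3. Arrays at 24 h and in control did not overlap for 3 of the 69, against 1.07% of all probe sets, and these were Srsf6, Sf3b1 and U2af2, all lower at 24 h.

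Between the times, 2 of the 69 genes were higher at 24 h than at 12 h, Clk4 and Prpf39, against 3.07% of all probe sets. Another 2 were lower, Snrpa1 and Snrpd2, against 2.92%. In either direction this made 5.80%, beside 5.99% of all probe sets. By limma 0 of the 69 passed an adjusted p of 0.05, against 0.0225% of all probe sets, and by Duncan's test 3 passed before and 0 after adjustment. The unadjusted count was 2 without Ang II 24 h replicate 5 and 2 without control replicate 4. Srsf6 alone had arrays that did not overlap between the times, against 1.20% of all probe sets.

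**Figure D3:**
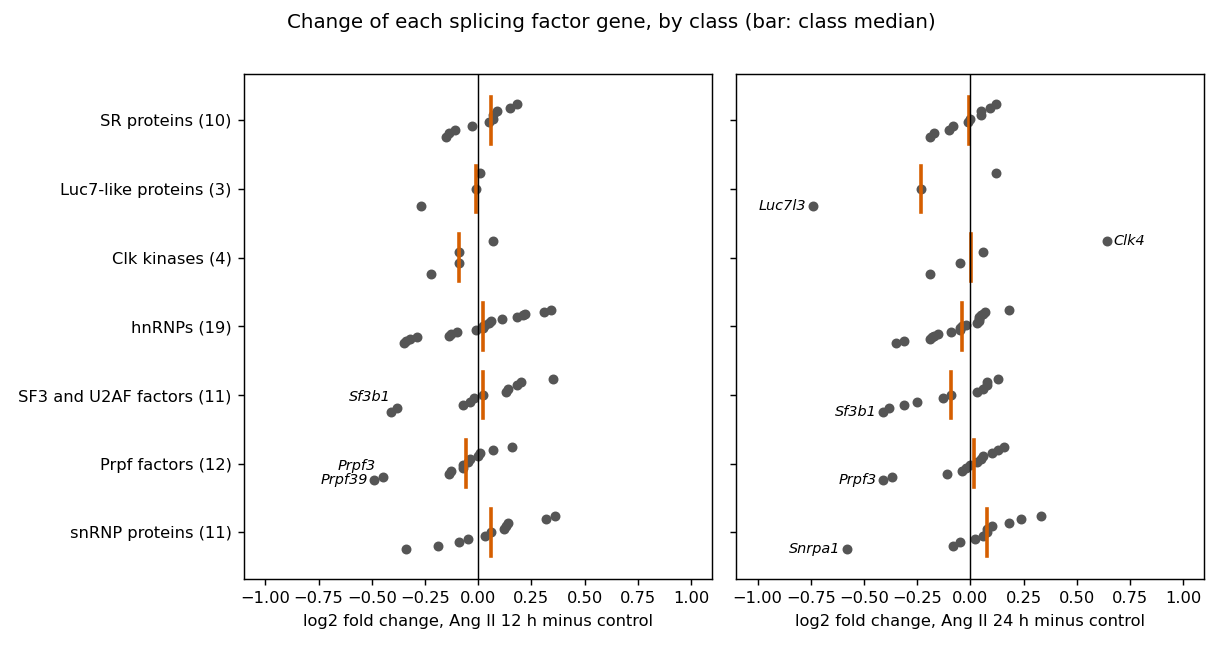
Log2 fold change of each of the 70 genes (1 point per gene, horizontal axes) at 12 h and at 24 h against control, by class (vertical axis, number of genes in brackets), with the class median as a bar. Luc7l3 at -0.74, Clk4 at 0.64 and Snrpa1 at -0.58 stand out at 24 h, and the other genes lie between -0.41 and 0.33.

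The SR proteins bind exonic enhancers and couple splicing to export and translation of the mRNA. None of the 10 reached an unadjusted p of 0.05 in any comparison. Their log2 fold changes ran from -0.15 to 0.18 at 12 h, with a median of 0.06, and from -0.19 to 0.12 at 24 h, with a median of 0.00, beside a median of 0.00 over all probe sets at both times. Srsf6 was the one whose arrays separated, with levels of 6.96, 6.87, 6.98, 6.87 and 7.25 at 12 h, 6.83, 6.79, 6.79, 6.79 and 6.64 at 24 h, and 6.89, 6.86, 7.13, 6.97 and 6.84 in control. The separation was narrow, since the highest array at 24 h and the lowest in control were nearly equal. Its log2 fold change at 24 h was -0.17 ± 0.12 (SE) against control, with an unadjusted p of 0.186 and an adjusted p of 0.822 by limma.

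Srsf1, the founding SR protein, averaged 5.97 ± 0.05 at 12 h and 5.91 ± 0.07 at 24 h, against 5.91 ± 0.16 in control. Srsf10, which acts as a repressor when dephosphorylated, averaged 13.03 ± 0.07 at 12 h and 13.08 ± 0.14 at 24 h, against 12.96 ± 0.11 in control. These differences were of the size of the SDs. Srsf3, the smallest SR protein and an adaptor for mRNA export, had the lowest SR value at 24 h, -0.19 ± 0.16 (SE), with replicate 1 at 5.38 apart from the others of its group. Srsf4 differed by -0.15 at 12 h and by 0.05 at 24 h, Srsf5 by -0.14 and -0.10, Srsf9 by 0.18 and -0.01, and Srsf12 by 0.15 and 0.09. At 12 h and 24 h in the same order, Srsf2, which also works in transcription elongation, differed from control by 0.09 and 0.05, and Srsf11 by -0.03 and -0.08. All SR proteins had adjusted p-values of at least 0.822 at 24 h.

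Among the hnRNPs, here only the genes with an Hnrnp symbol, none reached an unadjusted p of 0.05 in any comparison either. Their medians were 0.02 at 12 h (range -0.35 to 0.34) and -0.04 at 24 h (range -0.35 to 0.18). Hnrnpa0, a binder of AU-rich elements, had the most negative value at both times, -0.35 ± 0.19 (SE), with unadjusted p-values of 0.075 at 12 h and 0.0735 at 24 h. Its control mean of 6.88 ± 0.41, against 6.54 ± 0.22 at 12 h and 6.53 ± 0.25 at 24 h, included replicate 3 at 7.55, an array that stood apart. Without that array Hnrnpa0 gave -0.18 at both times, and Hnrnpr at 12 h (-0.30) and Hnrnpl at 24 h (-0.39) were then the most negative hnRNPs. The log2 fold changes at 12 h and 24 h were -0.32 and -0.31 for Hnrnph3, 0.31 and 0.07 for Hnrnpk, a binder of C-rich RNA, and 0.34 and 0.05 for Hnrnpul2. For Hnrnpk the 12 h arrays were at 12.31 to 12.89 and the control arrays at 11.91 to 12.62, so the groups overlapped.

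For Hnrnph1, which binds G runs, 4 of 5 arrays of each group were at the same value, 18.92. The highest value of any probe set was 19.93 on every array, and no splicing factor gene lay within 1 of it. Exact repeats were not particular to Hnrnph1. Most arrays were at 11.45 for Hnrnpa2b1, at 15.54 for Hnrnpdl and at 4.82 for Srsf2, and such repeats narrow the SDs. Why values repeat was not tested. Hnrnpc, which binds uridine tracts and keeps U2AF off them, differed by -0.10 at 12 h and -0.17 at 24 h, and Hnrnpll, a regulator of Ptprc splicing in lymphocytes, by -0.13 at 12 h and -0.15 at 24 h. Hnrnpa1l2-ps2 has a pseudogene's symbol and its probes may share signal with Hnrnpa1-like transcripts, and it differed by 0.06 at 12 h and -0.05 at 24 h.

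The SF3 and U2AF factors had medians of 0.02 at 12 h (range -0.41 to 0.35) and -0.09 at 24 h (range -0.41 to 0.13). Sf3b1, the branch-point subunit of the U2 particle, had levels of 6.08, 6.21, 5.96, 6.84 and 6.36 at 12 h, 6.34, 6.11, 6.28, 6.33 and 6.22 at 24 h, and 6.68, 6.54, 6.91, 6.77 and 6.44 in control. No 24 h array reached the control range, and at 12 h only replicate 4 lay inside the control range. The log2 fold changes were -0.38 ± 0.16 at 12 h (unadjusted p = 0.026, adjusted p = 0.966 by limma) and -0.41 ± 0.16 at 24 h (0.0163 and 0.598). Without both arrays that stood apart they were -0.32 (unadjusted p = 0.0734 by limma) and -0.36 (unadjusted p = 0.0573).

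U2af2, the subunit that binds the polypyrimidine tract, had levels of 8.08, 7.55, 8.30, 8.63 and 8.14 at 12 h, 7.98, 7.57, 7.80, 8.01 and 7.81 at 24 h, and 8.23, 8.22, 8.42, 8.02 and 8.16 in control. The 24 h arrays lay just under the control arrays, while the 12 h arrays spread above and below them. Its log2 fold change was -0.38 ± 0.17 at 24 h (SE, unadjusted p = 0.0372, adjusted p = 0.671 by limma) and -0.07 ± 0.17 at 12 h. The 24 h value missed the unadjusted threshold in 9 of 26 alternative settings. Its partner U2af1 differed by 0.02 at 12 h and -0.09 at 24 h. Sf3b2 averaged 3.87 ± 0.26 at 12 h and 3.98 ± 0.40 at 24 h, against 4.28 ± 0.26 in control, with log2 fold changes of -0.41 at 12 h (unadjusted p = 0.0412, at or above 0.05 in 9 of 25 alternative settings) and -0.31 at 24 h, where it was -0.16 without both arrays that stood apart. Sf3a1 gave 0.35 at 12 h (unadjusted p = 0.0514) and 0.08 at 24 h, and Sf3a3 gave -0.04 at 12 h and -0.25 at 24 h.

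**Figure D4:**
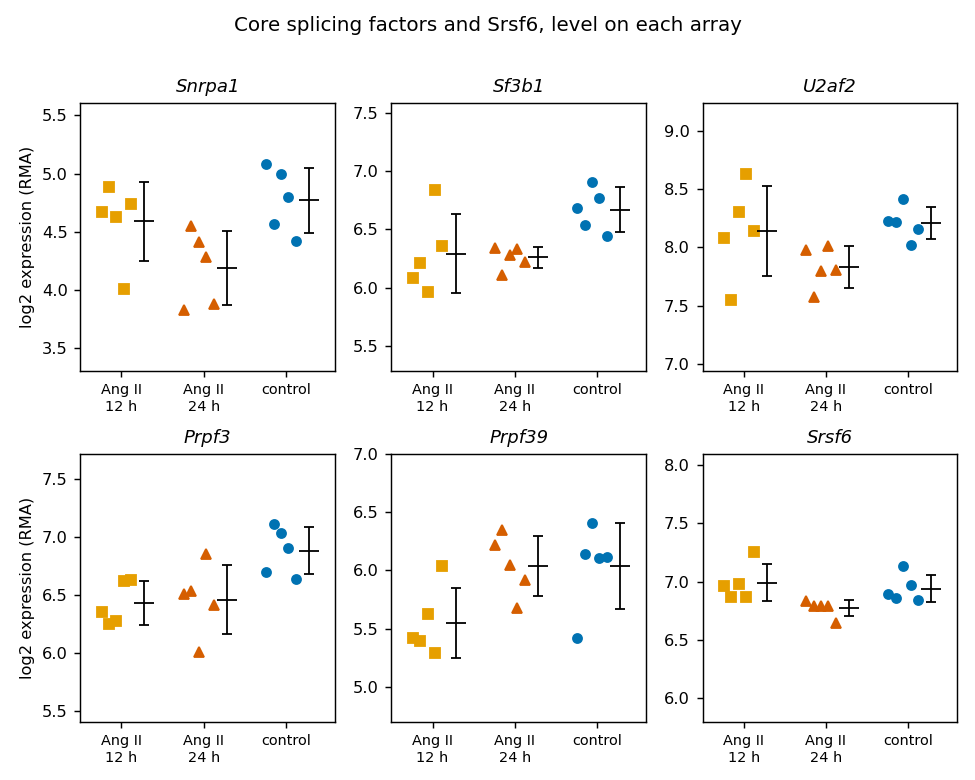
Log2 expression of Snrpa1, Sf3b1, U2af2, Prpf3, Prpf39 and Srsf6 on each array (vertical axes, all spanning the same log2 range), for Ang II 12 h, Ang II 24 h and control, with the group mean and SD in black (n = 5). Sf3b1, U2af2 and Srsf6 at 24 h lie below every control array, Prpf3 does so at 12 h, and the Snrpa1 and Prpf39 groups overlap.

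The Prpf factors had medians of -0.06 at 12 h (range -0.49 to 0.16) and 0.02 at 24 h (range -0.41 to 0.16). Of their means, 8 of 12 were below control at 12 h and 5 of 12 at 24 h. Of all 22206 probe sets, 11042 and 10865 were below control at these times. Prpf3, a scaffold of the U4/U6 particle, had levels of 6.35, 6.25, 6.28, 6.62 and 6.63 at 12 h, 6.51, 6.53, 6.01, 6.85 and 6.41 at 24 h, and 6.70, 7.11, 7.03, 6.90 and 6.64 in control. At 12 h every array lay below control, by a margin of 0.01 between the nearest arrays, and at 24 h replicate 4 lay inside the control range. The log2 fold changes were -0.45 ± 0.16 at 12 h (SE, unadjusted p = 0.0103, adjusted p = 0.966 by limma) and -0.41 ± 0.16 at 24 h (0.0169 and 0.598). Without both arrays that stood apart the 24 h value was -0.26 (unadjusted p = 0.119 by limma), and without Ang II 24 h replicate 3 alone it was -0.30 (unadjusted p = 0.0645).

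Prpf39, a partner of U1 and so a neighbour of the Luc7-like proteins, had levels of 5.42, 5.39, 5.63, 5.29 and 6.04 at 12 h, 6.22, 6.35, 6.05, 5.68 and 5.92 at 24 h, and 5.42, 6.14, 6.41, 6.11 and 6.12 in control. Its mean at 24 h was that of control and its mean at 12 h was lower, and control replicate 1 lay among the 12 h arrays. The log2 fold change was -0.49 ± 0.19 at 12 h (SE, unadjusted p = 0.0176, adjusted p = 0.966 by limma), 0.00 at 24 h and 0.49 ± 0.19 between the times (0.0168 and 0.787). Without control replicate 3 the 12 h value was -0.39 (unadjusted p = 0.0555 by limma), and without Ang II 24 h replicate 2 the difference between the times was 0.41 (unadjusted p = 0.0504). Prpf4b, a kinase of the tri-snRNP, differed by 0.16 at both times. Prpf8, the central protein of the U5 particle, differed by -0.05 at 12 h and 0.05 at 24 h. Prpf6 differed by -0.14 at 12 h and -0.37 at 24 h, with a control SD of 0.72, where replicate 3 lay at 6.13 and the other control arrays at 4.31 to 5.07. Without control replicate 3 the values of Prpf6 were 0.14 at 12 h and -0.09 at 24 h.

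The snRNP proteins form the Sm ring of the particles or belong to U1 or U2, and their medians were 0.06 at 12 h (range -0.34 to 0.36) and 0.08 at 24 h (range -0.58 to 0.33). Snrpa1, the A′ protein of the U2 particle (probe set TC0700000989.mm.2, chromosome 7), had levels of 4.67, 4.88, 4.63, 4.01 and 4.74 at 12 h, 3.83, 4.55, 4.41, 4.28 and 3.88 at 24 h, and 5.08, 4.57, 5.00, 4.80 and 4.42 in control. The 24 h arrays were mostly low, and only replicate 2 at 24 h was above the lowest control array. Its log2 fold change at 24 h was -0.58 ± 0.19 (SE) against control, with an unadjusted p of 0.00558 and an adjusted p of 0.553 by limma, and -0.40 ± 0.19 against 12 h, with 0.0481 and 0.829. The 24 h value lay between -0.67 and -0.49 over all settings, and the difference between the times missed the unadjusted threshold in 14 of 25. Snrpa1 lay under the low-signal mark in each group.

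Its U2 partner Snrpb2 gave -0.34 ± 0.23 (SE) at 12 h and 0.08 ± 0.23 at 24 h. Of the U1 proteins, Snrpc gave 0.36 ± 0.22 at 12 h and 0.33 ± 0.22 at 24 h, with adjusted p-values of 0.966 and 0.796, and Snrpa gave 0.13 at 12 h and 0.18 at 24 h. Without both arrays that stood apart the 24 h values were 0.13 for Snrpc and 0.04 for Snrpa. Among the Sm proteins Snrpd2 averaged 5.91 ± 0.36 at 12 h and 5.54 ± 0.20 at 24 h, against 5.59 ± 0.26 in control. The 24 h to 12 h difference of Snrpd2 was -0.37 (unadjusted p = 0.0483, adjusted p = 0.83 by limma), and it missed the unadjusted threshold in 15 of 26 alternative settings. Snrpe gave 0.12 at 12 h and 0.10 at 24 h, and the other Sm proteins (Snrpb, Snrpd1, Snrpd3, Snrpf and Snrpg) gave -0.09 to 0.14 at 12 h and -0.08 to 0.24 at 24 h.

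On single arrays the class median ran from -0.05 to 0.12 at 12 h and from -0.03 to 0.02 at 24 h for SR proteins, beside -0.06 to 0.02 in control, and for hnRNPs from -0.08 to 0.04 at 12 h and from -0.10 to 0.04 at 24 h, beside -0.08 to 0.06 in control. The Luc7-like median, the value of the middle gene of 3, ran from -0.21 to 0.17 at 12 h and was -0.57, 0.02, -0.38, -0.27 and -0.20 at 24 h, beside -0.18 to 0.12 in control. Hence 4 of the 5 arrays at 24 h lay below every control array. Luc7l3, on which the genes were chosen, is 1 of the 3 and was furthest below its control mean on each 24 h array. The middle value at 24 h was thus the lower of Luc7l and Luc7l2, so this separation follows in part from the choice. The Clk median ran from -0.51 to 0.36 at 12 h, from -0.27 to 0.21 at 24 h, and from -0.20 to 0.02 in control. The groups shared part of their range in all 7 classes.

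**Figure D5:**
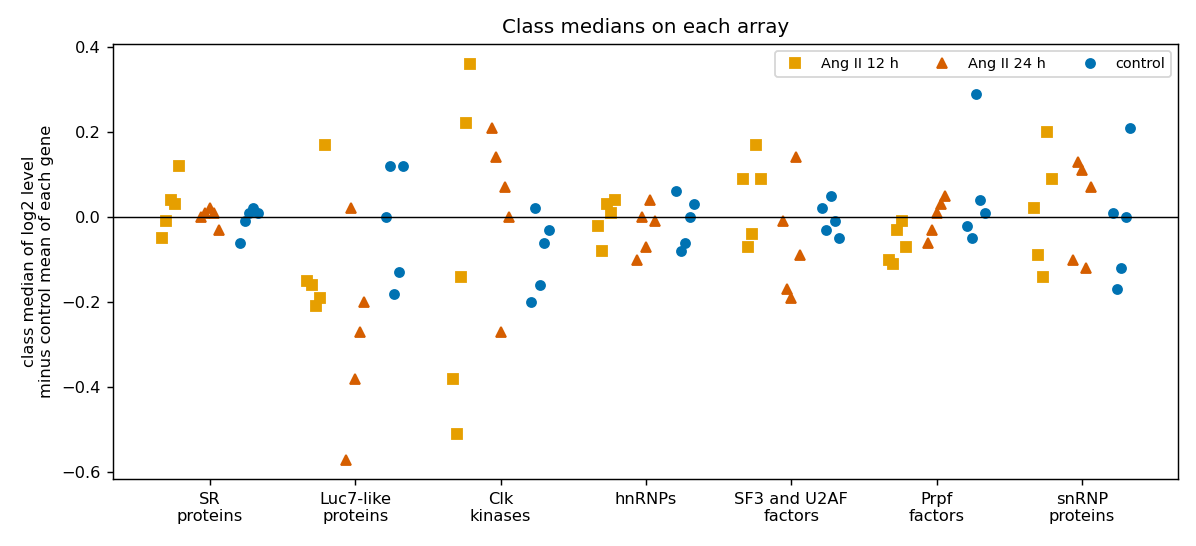
Class median, on each array, of the log2 level minus the control mean of each gene (vertical axis), for the 7 classes (horizontal axis) in Ang II 12 h, Ang II 24 h and control, 1 point per array. The groups share part of their range in every class, and 4 of 5 Luc7-like medians at 24 h lie under control. Luc7l3, on which the genes were chosen for its level at 24 h, belongs to that class. SR proteins and hnRNPs stay within -0.10 to 0.12 of the control mean, and the Clk kinases spread from -0.51 to 0.36.

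Another 144 genes of the splicing pathway, on 5 lists, were read from the same fit. At an unadjusted p under 0.05, 3 were higher and 2 lower at 12 h (3.47% of them, beside 4.91% of all probe sets), 3 were higher and 11 lower at 24 h (9.72%, beside 7.10%), and 1 was higher and 3 lower at 24 h than at 12 h (2.78%, beside 5.99%). None passed an adjusted p of 0.05 by limma in any comparison. Their median at 24 h was -0.07, with 84 of 144 means below control. Over all probe sets the median was 0, with 10865 of 22206 means below control, and the difference was not tested. By list, the counts at 24 h were 1 higher and 1 lower of 12 snRNP proteins and possible partners of U1 or Luc7. That list is mixed, and not all of its genes belong to U1. The counts were 0 and 2 of 24 SR-related proteins and 0 and 0 of 7 other SR protein kinases. Further regulators of alternative splicing gave 0 and 4 of 43, and core spliceosome proteins 2 and 4 of 58. Of all probe sets 3.64% were higher and 3.46% lower.

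Among the regulators, Ewsr1, an RNA-binding protein that contacts U1, averaged 11.76 ± 0.23 at 12 h and 11.33 ± 0.42 at 24 h, against 12.01 ± 0.29 in control. Its log2 fold change at 24 h, -0.68 ± 0.19 (SE), had an unadjusted p of 0.00205 and an adjusted p of 0.511 by limma. Syncrip is an hnRNP that was left out of that class by its symbol. Its 24 h arrays were at 12.61 to 13.05 and its control arrays at 13.18 to 13.36, with no overlap. At 24 h it gave -0.38 ± 0.14 (SE, adjusted p = 0.598 by limma). On the mixed list of snRNP proteins and possible partners, Tia1, which recruits U1 to weak 5′ sites, gave 0.41 ± 0.17 at 24 h. Fnbp4, of the same list, gave -0.53 ± 0.22. Without control replicate 3 these were 0.29 (unadjusted p = 0.0842 by limma) and -0.29 (unadjusted p = 0.125).

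The SR-related proteins Pnisr and Rsrc2 gave -0.34 and -0.56 at 24 h, with adjusted p-values of 0.696 and 0.676 by limma. Without both arrays that stood apart Pnisr gave -0.21 (unadjusted p = 0.208 by limma), and it missed the unadjusted threshold in 11 of 26 alternative settings and Rsrc2 in 8. Both had a wide spread in control, with SDs of 0.37 and 0.62. Of the kinases, Dyrk2 gave 0.08 at 12 h and -0.29 at 24 h, and Srpk3, an SR protein kinase of muscle, gave 0.10 at 12 h and 0.23 at 24 h. Of the core proteins, Txnl4a, a U5 protein, gave -0.53 ± 0.18 at 24 h (adjusted p = 0.553) and -0.26 without both arrays that stood apart, and Sart3, which recycles the U4 and U6 particles, gave -0.42 ± 0.15 (adjusted p = 0.585).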

How the data were processed

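RNA of 15 samples was measured on 1 Affymetrix array each. Per the methods, the authors read the arrays with GCOS (version not given in the sources used here) and normalized them with RMA, and they deposited log2 expression values with 2 decimals for 22206 probe sets. The array named in the methods is not the design of the probe set identifiers, and no genome build is given for it. By the platform annotation 19572 probe sets have a single symbol.

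The log2 values were fitted in R 4.3.3 with limma 3.58.1, 1 mean per group with no covariate (8.03 prior degrees of freedom), by the moderated F test and 3 contrasts. Benjamini-Hochberg adjusted p-values took in all 22206 probe sets. The code was tested on simulated data with known changes. The members and lists were chosen with earlier results of these data known. Named genes were all Srsf, Luc7-like and Clk genes, and elsewhere those with an adjusted p under 0.05, the smallest F test p-values, the highest level or the extreme correlations with Luc7l3. The 26 alternatives changed normalization, centring, filter, moderation, array weights, block, probe set averaging, groups in the fit and test, or left out arrays. Promoter windows were RefSeq's for GRCm38.p6. Of 76 RefSeq protein-coding symbols of the pattern 70 were measured. No column of another sample was used.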

Additional observations from a re-analysis of the deposited data

Results flagged for a closer look

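In each of the 49 named genes and each group of 5 arrays, the gap between the most extreme array and the next was compared with the range of the group. Of 147 groups 12 were past Dixon's critical value of 0.71. The usual rate of about 1 in 20 groups holds for normal values without ties. For Srsf2 in control and for Hnrnph1 in each group the other arrays were tied, so any difference passes. The count can therefore not be set against that rate. Among the SR proteins, Srsf2 was at 5.24 on Ang II 12 h replicate 5 (others 4.71 to 4.82) and at 4.68 on control replicate 3, where the others were all at 4.82. Srsf3 was at 5.38 on Ang II 24 h replicate 1 (others 4.68 to 4.86). Srsf6 was at 7.25 on Ang II 12 h replicate 5 (others 6.87 to 6.98) and at 6.64 on Ang II 24 h replicate 5 (others 6.79 to 6.83).

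Ang II 24 h replicate 3, which stood apart over all probe sets, was the extreme array for Luc7l at 7.62 (others 6.77 to 7.01) and for Clk3 at 6.04 (others 6.79 to 6.97). Hnrnph1 was at 18.86 on Ang II 12 h replicate 2, at 18.99 on Ang II 24 h replicate 2 and at 18.78 on control replicate 4, each in a group whose other arrays were all at 18.92. Sf3a3 was at 11.99 on control replicate 1 (others 11.72 to 11.79). Snrpa1 was at 4.01 on Ang II 12 h replicate 4 (others 4.63 to 4.88), and without that array its difference between the times was -0.54.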

How the results depend on the processing

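Of the 70 genes at 12 h and the 69 other than Luc7l3 at 24 h and between the times, none passed an adjusted p of 0.05 under any of the 26 alternatives. Nor did any of the 69 in the F test, which Duncan's test and the fits of only 2 groups do not give. Luc7l3 was not tested in those comparisons. The unadjusted counts moved by 1.5 times or more under few of them. With only probe sets above the median level, which left 53 of the 70 genes, 3 passed the F test, 3 passed at 24 h against control and 2 between the times, and the class medians at 12 h were 0.01 for SR proteins and 0.07 for Clk kinases. Without both arrays that stood apart, 3 passed the F test, 2 at 12 h and 3 at 24 h, and the medians were 0.02 for SR proteins at 12 h and 0.12 for Clk kinases at 24 h. With only the 2 groups compared in the fit, 2 passed between the times. Leaving out single arrays gave 3 to 6 for the F test, 2 to 8 at 12 h, 3 to 7 at 24 h and 2 to 5 between the times. Class medians then ran from -0.01 to 0.07 at 12 h and -0.03 to 0.04 at 24 h for SR proteins, from -0.21 to 0.05 and -0.04 to 0.11 for Clk kinases, and from -0.02 to 0.10 and -0.14 to -0.01 for SF3 and U2AF factors. The cause was not tested. With the replicate number as a block (replicate block), 7 passed the F test, 6 at 12 h, 5 at 24 h and 4 between the times. The numbers did not pair the arrays, since the 15 same-numbered pairs had correlations of -0.04 to 0.05. No difference of a named gene with an unadjusted p under 0.05 by limma changed sign, nor did those of Luc7l3 at 24 h. Smaller differences did. Prpf6 at 12 h went from -0.14 to 0.14 without control replicate 3, and Luc7l at 24 h from 0.12 to -0.03 without Ang II 24 h replicate 3. Of the other results, 52 values of single genes moved and 771 did not. The number of arrays limits the precision, 33 of the 70 genes lay at or under the low-signal mark, and one probe set per gene cannot separate spliced forms.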
